A study of Mus musculus with 6 samples.

Results

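The 32 genes described here are 16 genes that mark mature, homeostatic astrocytes and 16 genes that are raised in reactive astrocytes, measured by RNA-seq of mouse brain. They were listed by symbol, and no value or threshold enters the rule. All 32 members were found among the 31276 gene symbols of the deposited table, and 30 of them, among 16592 genes in all, had enough counts to be tested. The 2 members that were not tested were the reactive genes Lcn2 and Steap4.

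The study compared the brains of mice of the C57BL/6 strain at postnatal day 14. There were 3 libraries from wild-type mice (WT) and 3 from mice labelled PRMT5 olig2cre KO (KO), in which a Cre recombinase under Olig2 control removes the arginine methyltransferase gene Prmt5. Olig2 is active throughout the oligodendrocyte lineage and also in some progenitors of astrocytes and neurons, so the deletion is limited to cells of those lineages. The labels name the tissue only as brain, do not give the state of the Prmt5 alleles or of the Cre in the WT mice, and do not say whether each library is a separate animal, so p-values describe the spread among these 6 libraries, which may be technical.

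Astrocytes take up the glutamate and potassium that neurons release, move water across their endfeet at blood vessels and supply neurons with glutamine and energy substrates. After injury, inflammation or loss of myelin they become reactive: they build more intermediate filament, and cytokines of the interleukin-6 family, acting through receptors such as the oncostatin M receptor and the transcription factor STAT3, switch on many of the genes of that state. Sets of reactive genes have been called pan-reactive, A1 (after inflammatory stimuli) and A2 (after ischaemia). Several reactive genes, Vim and Emp1 among them, are also active in fibroblasts, vessel cells and other cells outside the astrocyte lineage.

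Library totals ran from 15089140 to 16872925 counts, and the 32 members took between 0.688% and 0.772% of them. Levels are given as CPM, read counts scaled to a common library size of 1e6 after the totals were adjusted by edgeR's TMM method, always in the order of replicates 1, 2 and 3. Prmt5 itself lay at 90.8, 90.4 and 91.8 CPM in WT and at 68.2, 68.4 and 81.6 CPM in KO. WT replicate 1, KO replicate 1 and KO replicate 3 held cerebellar transcripts: the granule cell gene Gabra6 was at 63.8, 80.03 and 22.1 CPM in these 3 libraries and had no count in the other 3. A female transcript, Xist, was high in WT replicate 2 and in KO replicates 1 and 2.

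All 16 homeostatic genes had counts in every library. To compare genes with each other, CPM were divided by the exonic length of each gene in kilobases. On this scale the homeostatic genes Glul, Atp1b2, Aldoc, Ndrg2 and Slc1a2 led in WT, with means from 263 to 162 CPM per kilobase, and all but 1 of the 16 homeostatic genes stood among the highest 17 members. The exception was Fgfbp3, at 2.31 CPM per kilobase. Among the reactive genes, Gfap took place 8 with a mean of 58.1 and Vim place 18 with 8.71 CPM per kilobase, while Lcn2 was lowest with 0.0629. The WT ranges of the first 5 genes overlapped between neighbours in this order, as did those of most genes below them. The order was nearly the same in KO. Emp1 moved from place 27 in WT to place 24 in KO.

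**Figure D1:**
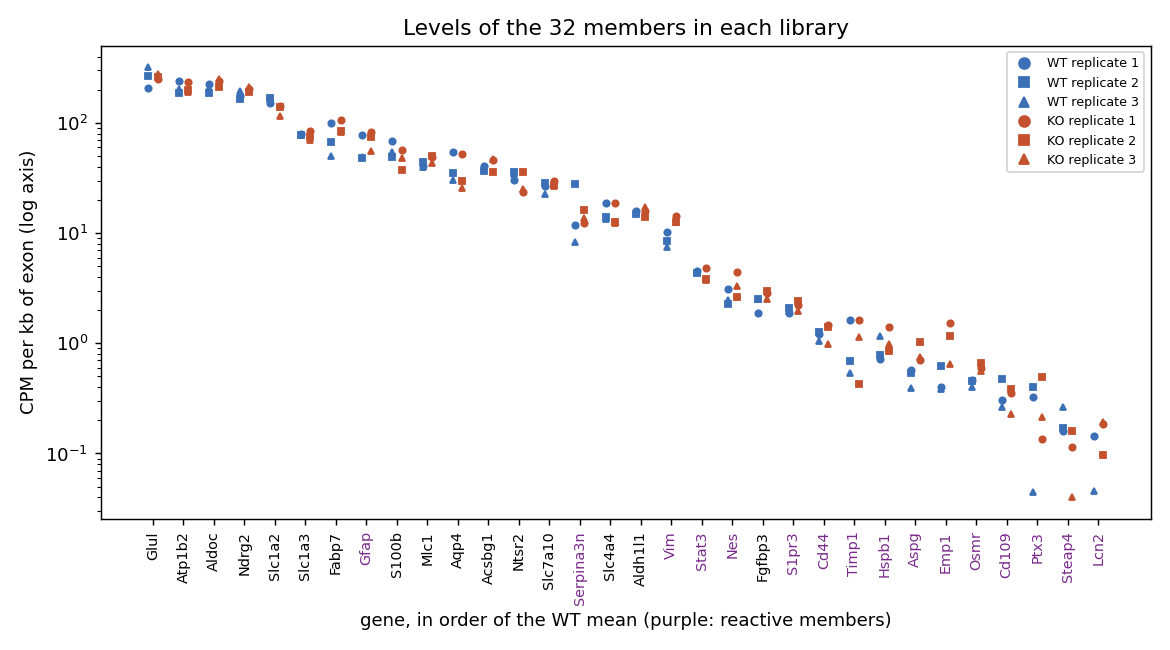
Level of each member in every library, in CPM per kilobase of exon on a log axis, with WT libraries in blue and KO libraries in red; members are ordered by their WT mean. The homeostatic genes fill most of the upper part and the reactive genes the lower part; the WT replicate 2 point of Lcn2, which had no count, cannot be drawn on a log axis.

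Across the whole set, only Vim was called different between KO and WT at a Benjamini-Hochberg adjusted p under 0.05 (edgeR quasi-likelihood test over all 16592 genes), and it was higher in KO. That is 1 of 30 tested members, beside 1.20% of all tested genes called in either direction and 0.241% called higher. An unadjusted p under 0.05 was found for 5 members, Slc1a2 with a lower value and Vim, Osmr, Aspg and Emp1 with higher values in KO, beside 9.67% of all genes. The CPM ranges of the WT and KO libraries did not overlap for 6 members (Slc1a2 on the lower side; Fgfbp3, Vim, Osmr, Aspg and Emp1 on the higher side), beside 16% of all genes. The members' share, 6 of 30, is near that background.

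The median log2 fold change of KO against WT was 0.02 over the 16 homeostatic genes, with 9 positive and 7 negative values between -0.30 and 0.35. Over the 14 tested reactive genes it was 0.23, with 11 positive and 3 negative values between -0.19 and 1.25. Over all tested genes it was 0.01. The summed CPM of the homeostatic genes were 6928, 6710 and 7068 in WT and 7116, 6479 and 6331 in KO, so the groups overlapped. The summed reactive genes, of which Gfap supplies most, were at 495, 392 and 346 CPM in WT and 563, 507 and 412 CPM in KO. These overlapped as well, through the high WT replicate 1 and the low KO replicate 3.

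Libraries that carry the same replicate number deviated from their group means together. A second fit, blocked on that number, was therefore run beside the unblocked one, so the pairing was taken from these same data. The blocked fit and the pair counts rest on it. The blocked fit called 3 of 30 members, Vim, Emp1 and Fabp7, all higher in KO, beside 3.41% of all genes. Of the 30 tested members, 12 were higher in KO in all 3 same-numbered pairs, 5 of them homeostatic and 7 reactive, beside 19.3% of all genes. Aqp4, Slc1a2 and S100b, all homeostatic, were the 3 tested members lower in all 3 pairs, beside 17.8% of all genes. Of the untested members, Lcn2 was higher and Steap4 lower in CPM in all 3 pairs, at very low counts. Steap4 had 8 counts in both libraries of pair 2, so its lower CPM there comes from scaling alone. Lcn2 had 6 counts in WT and 8 in KO in pair 1, with overlapping counting intervals.

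**Figure D2:**
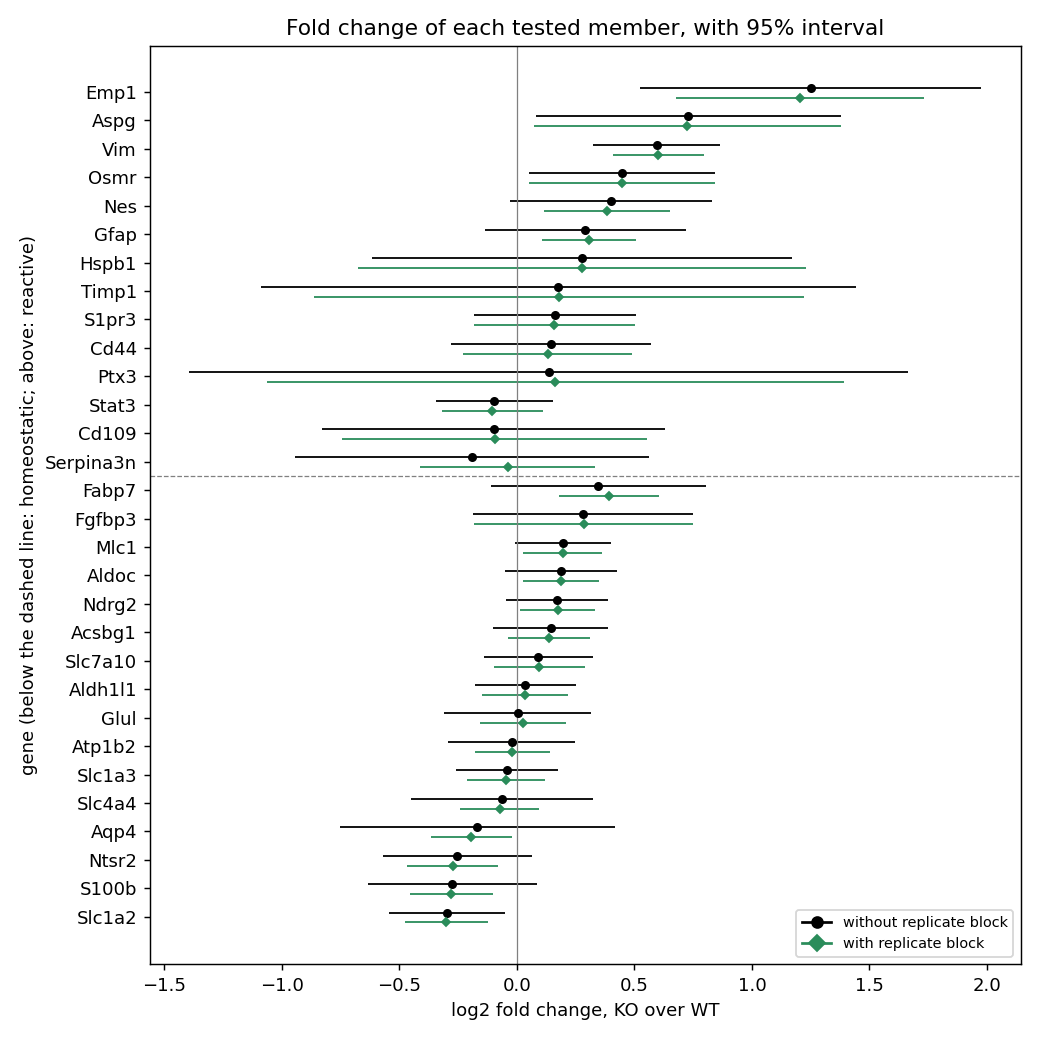
Log2 fold change of KO against WT for the 30 tested members, with 95% confidence intervals from edgeR without (black circles) and with (green diamonds) the replicate block, reactive genes above the dashed line and homeostatic genes under it. Without the block the intervals of Emp1, Aspg, Vim, Osmr and Slc1a2 do not cross 0, and the blocked intervals leave out 0 for more members.

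Glutamate handling comes first among the homeostatic genes. Slc1a2 encodes GLT-1, the transporter that clears most synaptic glutamate in the forebrain, and lies at chr2:102658659-102790784 on the plus strand of mm10. Its levels were 1973, 2204 and 2210 CPM in WT and 1871, 1816 and 1513 CPM in KO. Every KO library lay below every WT library, and KO replicate 3 was the lowest of the 6. The fold was 0.814, with a log2 fold change of -0.30 (95% interval -0.54 to -0.05) and an adjusted p of 0.404 by edgeR, so the difference was not called. With the replicate block the adjusted p was 0.0578. KO replicate 3 was also the library in which log2 deviations went down most with exonic length (Pearson r = -0.278 across genes, which are not independent replicates), and Slc1a2 has 13133 exonic bases, the longest of the 32 members. With offsets for length the log2 fold change was -0.21 (adjusted p 0.599 by edgeR). Without KO replicate 3, and without these offsets, it was also -0.21 (adjusted p 0.662 by edgeR). The part of exonic length in the Slc1a2 values was not tested.

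The window of 250 bases before one RefSeq start of Slc1a2 holds 168 bases outside annotated exons, on the plus strand of GRCm38.p6 (chr2:102706188-102706355), and these are shown because the gene is the only homeostatic member with KO levels wholly below WT. None of the 3 motif forms searched, which are spelled out with the Emp1 windows, occurs in them, so they carry no capitals. These bases lie inside the annotated gene, which begins at chr2:102658659, and no window before that base was searched.
Slc1a2: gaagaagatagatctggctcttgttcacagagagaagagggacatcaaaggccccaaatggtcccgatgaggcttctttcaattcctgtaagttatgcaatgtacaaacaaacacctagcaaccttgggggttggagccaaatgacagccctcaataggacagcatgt

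Slc1a3 encodes GLAST, the glutamate transporter of radial glia, Bergmann glia and young astrocytes. It lay at 681, 659 and 666 CPM in WT and 715, 638 and 595 CPM in KO. The WT libraries were close together, and the KO libraries spread to both sides of them. Its log2 fold change was -0.04 (95% interval -0.26 to 0.17), so the interval does not include the size measured for Slc1a2. The difference between the 2 transporters was not tested.

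Glul, the glutamine synthetase that turns glutamate taken up by astrocytes into glutamine, ranged from 686 to 1060 CPM in WT and from 837 to 923 CPM in KO, with a log2 fold change of 0.00 (95% interval -0.31 to 0.32). Slc7a10, the Asc-1 exchanger of serine, glycine and other small neutral amino acids, ranged from 48.1 to 60.6 CPM in WT and from 56.7 to 62.3 CPM in KO. Both groups overlapped for both genes. Slc7a10 shares 17.9% of its exonic length with Lrp3 on the other strand, and the strand setting of the counting is not known, so part of its counts may belong to Lrp3.

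Of the genes of water and ion balance none was called without or with the block. Aqp4, the water channel of astrocyte endfeet, lay at 342, 220 and 190 CPM in WT and 325, 184 and 159 CPM in KO. Replicate 1 was far above the other 2 in both groups, each KO library was below the WT library of the same number, and the groups overlapped. The log2 fold change was -0.17 (SE 0.265) without the block and -0.19 (SE 0.0819) with it, with an adjusted p of 0.244 in the blocked fit. It was -0.51 within the libraries with cerebellar transcripts, where WT replicate 1 stands alone, and -0.15 within those without, where KO replicate 2 stands alone. Slc4a4, an electrogenic sodium bicarbonate cotransporter, followed the same outline, with 202 CPM in WT replicate 1 and 205 CPM in KO replicate 1 against 133 to 150 CPM in the other 4 libraries. Atp1b2, the glial beta subunit of the sodium-potassium pump, ranged from 771 to 991 CPM in WT and from 783 to 958 CPM in KO. Mlc1, a membrane protein of perivascular endfeet, ranged from 111 to 124 CPM in WT and from 121 to 141 CPM in KO, and was higher in KO in all 3 pairs with a slight overlap of the groups.

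Aldh1l1, Aldoc, Ndrg2 and Acsbg1 had log2 fold changes above 0, and none was called. Aldh1l1, a folate enzyme widely used to mark astrocytes, lay at 71.0, 66.8 and 69.0 CPM in WT and 71.3, 63.3 and 77.4 CPM in KO. The KO libraries lay on both sides of WT, and the log2 fold change was 0.04 (95% interval -0.18 to 0.25). An antisense gene, Gm15756, shares 499 of the 4516 exonic bases of Aldh1l1. Aldoc, the brain form of fructose-bisphosphate aldolase, ranged from 607 to 738 CPM in WT and from 697 to 823 CPM in KO. Ndrg2, a cytoplasmic protein abundant in astrocytes, ranged from 566 to 664 CPM in WT and from 655 to 721 CPM in KO. For both, the KO library was higher in all 3 pairs, the log2 fold changes were 0.19 and 0.17, and the groups overlapped. Acsbg1, an acyl-CoA synthetase for long fatty acids, ranged from 132 to 145 CPM in WT and from 129 to 168 CPM in KO.

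**Figure D3:**
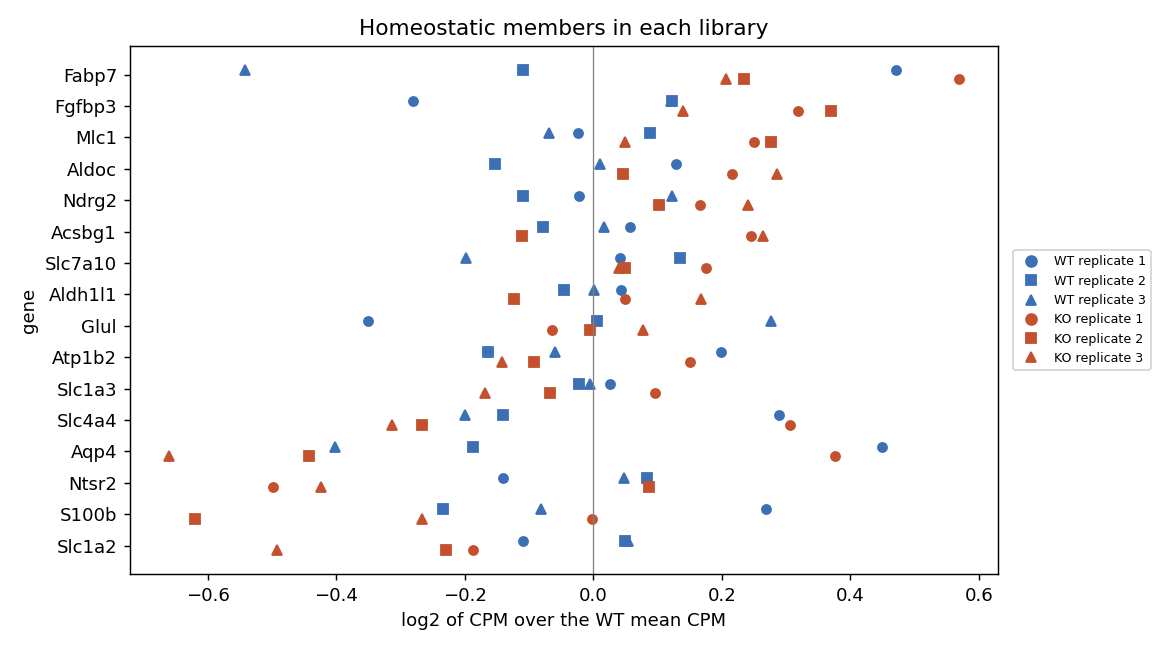
Homeostatic members in every library, as log2 of the CPM over the WT mean on the horizontal axis, blue for WT and red for KO, with a marker shape for each replicate number. For Aqp4, S100b, Slc4a4 and Fabp7 replicate 1 is the highest library of both groups, and for Slc1a2 all KO points lie below all WT points.

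S100b encodes a calcium-binding protein that is made by astrocytes and also by oligodendrocyte-lineage cells. Its levels were 103, 72.4 and 80.4 CPM in WT and 85.0, 55.4 and 70.8 CPM in KO. Each KO library lay below the WT library of the same number, while the groups overlapped through the high KO replicate 1. The log2 fold change was -0.27 (SE 0.162, adjusted p 0.620 by edgeR) and -0.28 with the block (adjusted p 0.0824). It was called lower with the block and a cerebellum term (-0.33, adjusted p 0.0376) and with the block and length offsets (-0.39, adjusted p 0.00867). Markers of oligodendrocyte precursors summed to 1131 to 1157 CPM in WT and 660 to 691 CPM in KO, with 5 of 8 genes called lower, and markers of myelinating oligodendrocytes to 7381 to 10048 CPM in WT and 879 to 1884 CPM in KO, with 8 of 8 called lower. Over all tested genes, 1.20% were called in either direction. The part of oligodendrocyte-lineage RNA in the S100b values was not tested. In RNA of bulk brain tissue, fewer cells of a type and less RNA per cell cannot be told apart.

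Fabp7, a brain fatty acid-binding protein of radial glia, Bergmann glia and immature astrocytes, lay at 125, 83.8 and 62.0 CPM in WT and 134, 106 and 104 CPM in KO. Replicate 1 was highest in both groups, each KO library exceeded the WT library of its number, and the groups overlapped. The log2 fold change was 0.35 (SE 0.208, adjusted p 0.626) without the block and 0.39 (SE 0.101, adjusted p 0.0338) with it, so of these 2 fits only the blocked one called it higher. That call was lost with the block and a cerebellum term (0.22, adjusted p 0.271) and with the block and length offsets (0.27, adjusted p 0.136). Its value was -0.08 within the libraries with cerebellar transcripts and 0.55 within those without, each with a single library in 1 group.

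Ntsr2, a neurotensin receptor of astrocytes, ranged from 95.01 to 111 CPM in WT and lay at 74.2, 111 and 78.1 CPM in KO. KO replicates 1 and 3 were below all WT libraries, and KO replicate 2 was level with the highest of them. The log2 fold change was -0.25 with all libraries, -0.15 with a cerebellum term and 0.02 within the libraries without cerebellar transcripts, where KO replicate 2 stands alone. Fgfbp3, a secreted carrier of fibroblast growth factors, lay at 3.37, 4.46 and 4.45 CPM in WT and 5.11, 5.29 and 4.51 CPM in KO. The groups did not overlap, but the lowest KO library exceeded the highest WT library by only 0.0499 CPM. Its log2 fold change was 0.28 (SE 0.212) with an adjusted p of 0.714.

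Among the reactive genes the intermediate filaments come first. Vim, vimentin, is a filament protein of immature and reactive astrocytes and lies at chr2:13573927-13582826 on the plus strand of mm10. It lay at 48.3, 40.0 and 35.6 CPM in WT and 68.2, 59.5 and 59.5 CPM in KO. Every KO library was above every WT library, and Vim rose 1.51-fold, with a log2 fold change of 0.60 (95% interval 0.33 to 0.87) and an adjusted p of 0.0457 by edgeR. The call sat close to the threshold. It was lost on leaving out WT replicate 2 (adjusted p 0.262), WT replicate 3 (0.284), KO replicate 1 (0.0738), KO replicate 2 (0.121) or KO replicate 3 (0.101), and with a term for Xist (0.124), while without WT replicate 1 it was kept at 0.72 (0.0236). With the replicate block the adjusted p was 0.000415.

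Gfap, the filament protein that defines reactive astrocytes, lies at chr11:102887336-102900912 on the minus strand of mm10. It lay at 327, 203 and 205 CPM in WT and 349, 316 and 234 CPM in KO. WT replicate 1 and KO replicates 1 and 2 stood well above the other 3 libraries. The groups therefore overlapped, although each KO library exceeded the WT library of its number. The 95% interval of the log2 fold change, -0.14 to 0.72, includes both 0 and a fold as large as that of Vim. In the blocked fit the value was 0.31 with an adjusted p of 0.0960, and with the block and a cerebellum term Gfap was called higher at 0.37 (adjusted p 0.0118). The value was -0.17 within the libraries with cerebellar transcripts and 0.63 within those without, each with a single library in 1 group (WT replicate 1 and KO replicate 2).

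RefSeq lists a start of Gfap whose preceding 250 bases on the minus strand of GRCm38.p6 (chr11:102897201-102897450) lie outside annotated exons. They are shown because Gfap is the defining gene of the reactive set, and hold none of the 3 motif forms. These bases lie inside the annotated gene, which begins at chr11:102900912 on this strand, and no window before that base was searched.
Gfap: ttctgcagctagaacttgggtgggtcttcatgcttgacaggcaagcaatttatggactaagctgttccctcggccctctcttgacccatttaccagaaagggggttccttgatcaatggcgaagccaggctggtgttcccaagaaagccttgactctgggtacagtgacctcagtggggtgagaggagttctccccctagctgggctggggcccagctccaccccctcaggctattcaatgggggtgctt

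Nes, nestin, a filament protein of neural progenitors that reappears in reactive astrocytes, lay at 19.99, 14.7 and 16.004 CPM in WT and 28.7, 17.01 and 21.2 CPM in KO. KO replicates 1 and 3 were above all WT libraries and KO replicate 2 lay within their range. The log2 fold change was 0.40 (95% interval -0.03 to 0.83), with adjusted p of 0.543 without and 0.123 with the block. All 3 filament genes were higher in KO in all 3 pairs, and only Vim was called.

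**Figure D4:**
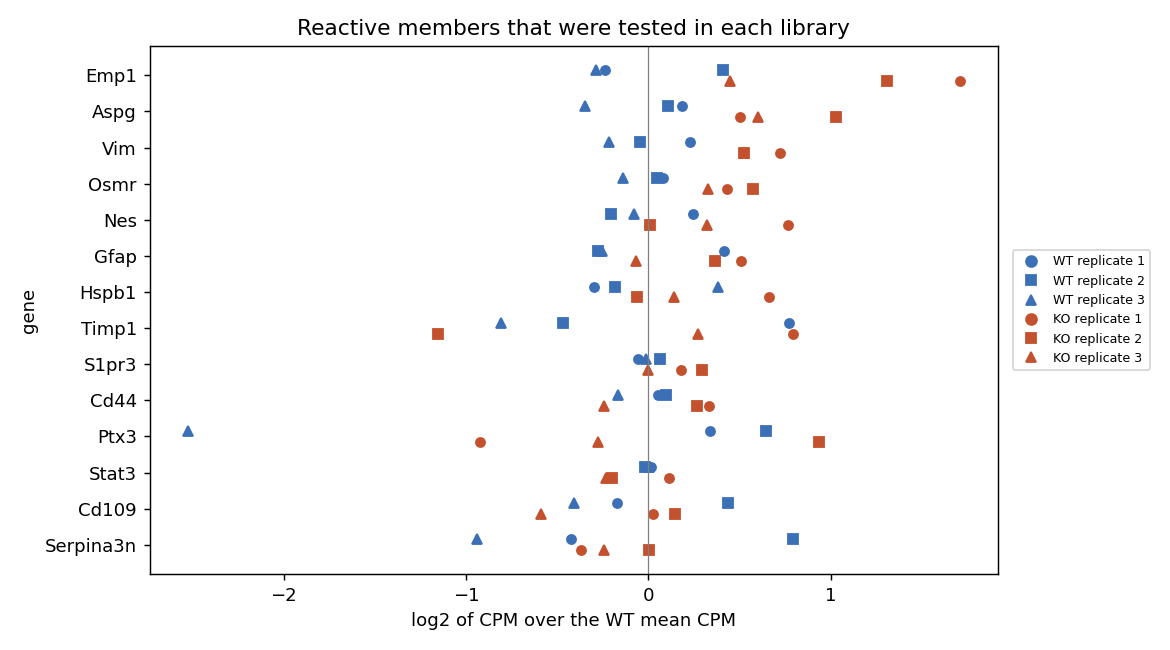
The 14 tested reactive members in every library, as log2 of the CPM over the WT mean on the horizontal axis, blue for WT and red for KO, with a marker shape for each replicate number. KO and WT points separate for Vim, Osmr, Aspg and Emp1, overlap for the other tested members, and WT replicate 2 stands apart for Serpina3n.

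Emp1 had the largest fold change of the tested members. It encodes epithelial membrane protein 1, a tetraspan membrane protein listed among A2 reactive genes, at chr6:135362545-135383173 on the plus strand of mm10. Its levels were 2.37, 3.72 and 2.29 CPM in WT and 9.12, 6.93 and 3.81 CPM in KO. All KO libraries were above all WT libraries, but KO replicate 3 exceeded WT replicate 2 by only 0.0946 CPM. The fold was 2.38 (log2 fold change 1.25, 95% interval 0.53 to 1.97) with an adjusted p of 0.155, so Emp1 was not called by edgeR without a block. It was called in the blocked fit (adjusted p 0.00739), by DESeq2 (0.0293), in edgeR without a filter on low counts (0.0425) and on leaving out KO replicate 3 (0.0456).

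Markers of meningeal fibroblasts moved in the same direction. Their 9 genes summed to between 249 and 288 CPM in WT and to 599, 486 and 374 CPM in KO, without overlap. Of the 9, 5 were called higher (Col1a1, Col1a2, Col3a1, Lum and Slc6a13), beside 0.241% of all genes. With the replicate block 8 of the 9 were called, beside 3.41% of all genes. This list, like the others, was chosen with earlier results of these data known. Ogn had the only negative value of the 9, at -0.09 without the block. Igf2, with overlapping ranges, supplied the largest part of the sum, with means of 137 CPM in WT and 220 CPM in KO. The KO libraries ranked in the same order for this sum as for Emp1 and the WT libraries, at 271, 249 and 288 CPM, in the opposite order. Ependymal markers, 6 genes of which none was called without the block and 1 with it (Rarres2 at 0.62, adjusted p 0.0224), summed to between 29.4 and 39.0 CPM in WT and between 42.3 and 48.0 CPM in KO. Of these genes 5 had positive values and 1 a negative one (Spag17 at -0.29), with a median of 0.37. Foxj1 and Hydin, at 0.12 and 0.10, and Spag17 had overlapping ranges. Choroid plexus markers, 6 genes with positive values throughout and a median of 0.42, summed to between 409 and 580 CPM in WT and between 534 and 948 CPM in KO. Ttr, transthyretin, makes up most of that sum, with means of 490 CPM in WT and 703 CPM in KO. No choroid plexus marker was called without the block, and Ttr was called with it (0.50, adjusted p 0.0144). The sums of endothelial markers (144 to 148 CPM in WT, 138 to 154 CPM in KO), of pericyte and smooth muscle markers (123 to 128 and 105 to 128 CPM) and of microglial markers (341 to 421 and 382 to 437 CPM) overlapped between the groups. None of the genes on these 3 lists was called without the block. With it 1 was called, the pericyte and smooth muscle marker Cspg4, lower in KO (-0.50, adjusted p 0.0316). No marker of these lists was at 0 in all libraries. The part of fibroblast, ependymal and choroid plexus RNA in the values of Emp1, Vim and the other reactive genes was not tested.

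**Figure D5:**
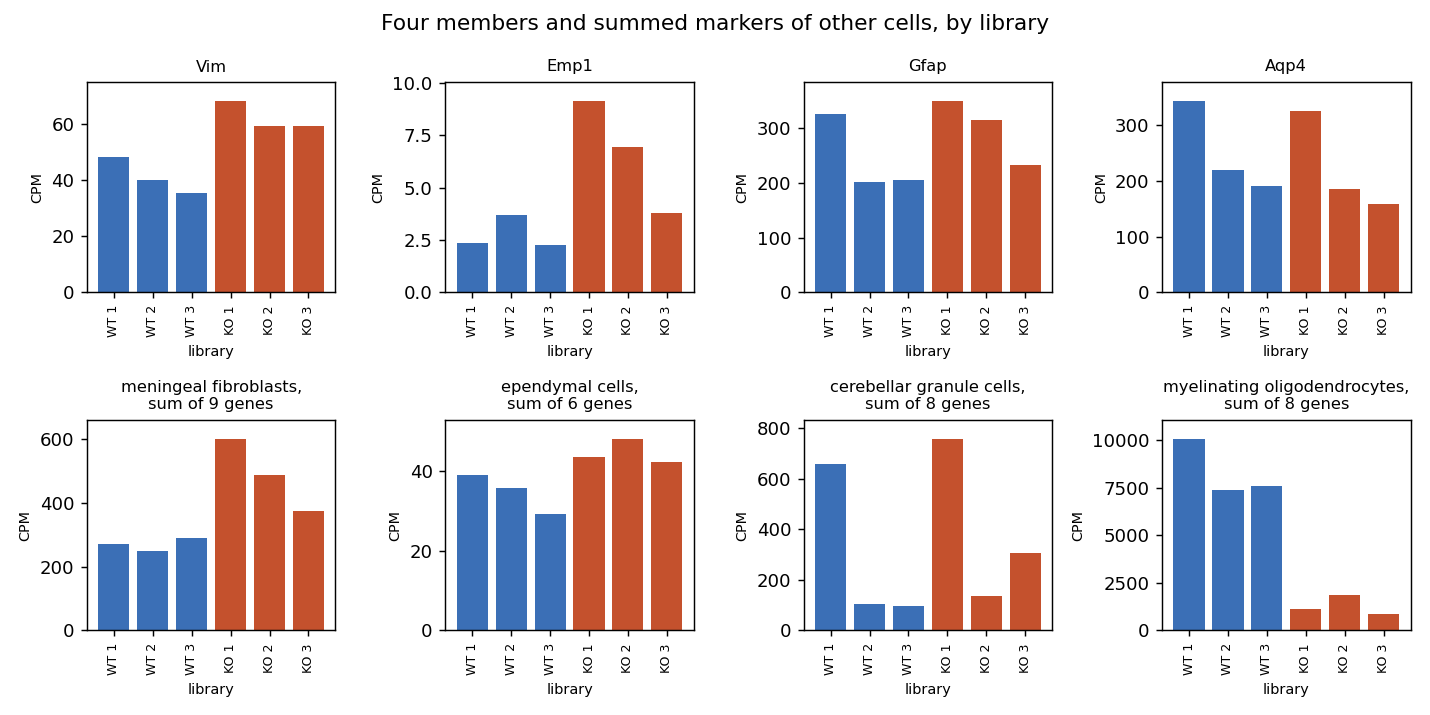
Bars give the CPM of Vim, Emp1, Gfap and Aqp4 and the summed CPM of marker genes of meningeal fibroblasts, ependymal cells, cerebellar granule cells and myelinating oligodendrocytes in each library, blue for WT and red for KO. All KO bars exceed all WT bars for Vim, Emp1, fibroblast and ependymal markers, all lie below for the oligodendrocyte markers, and the granule cell sum is highest in replicate 1 of both groups.

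The windows before both RefSeq starts of Emp1 are shown because this gene differs most between the groups. Windows before RefSeq starts were searched on both strands for TTCNNNGAA, the general form of a STAT site, for its stricter form TTCCNGGAA, and for TGANTCA, an AP-1 site. The first window, 196 bases on the plus strand of GRCm38.p6 (chr6:135362708-135362903), holds 1 AP-1 match followed by 1 STAT match, both in capitals. The second, at chr6:135367243-135367492, holds none. Both windows lie inside the annotated gene, which begins at chr6:135362545, so neither holds bases upstream of that first annotated base.
Emp1 first start: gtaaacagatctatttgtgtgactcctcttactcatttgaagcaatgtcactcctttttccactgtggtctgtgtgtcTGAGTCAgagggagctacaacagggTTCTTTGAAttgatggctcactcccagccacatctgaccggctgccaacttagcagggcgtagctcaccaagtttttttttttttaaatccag
Emp1 second start: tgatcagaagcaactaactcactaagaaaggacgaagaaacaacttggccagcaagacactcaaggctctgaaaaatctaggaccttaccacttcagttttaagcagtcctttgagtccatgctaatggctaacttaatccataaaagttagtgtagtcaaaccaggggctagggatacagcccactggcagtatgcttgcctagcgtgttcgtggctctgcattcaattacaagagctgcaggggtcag

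Windows of the 250 bases before RefSeq starts were matched by symbol for 29 of the 32 members, 34 windows in all, and not for Aqp4, Atp1b2 and Cd109. The general STAT form occurred in 6 of the 34 windows, those of Acsbg1, Aldoc, Emp1, Ntsr2, Slc1a3 and Steap4, and in 7.02% of all 32851 windows. The strict form, which is contained in the general one, occurred in those of Aldoc and Steap4 and in 0.91% of all windows. The AP-1 form occurred in the first Emp1 window only among the members and in 6.75% of all windows. That window holds another match to each of the STAT and AP-1 forms nearer to the start, in bases that overlap each other and an annotated exon and are not printed. A match describes letters and shows no binding.

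Osmr encodes the oncostatin M receptor, a signalling partner of gp130 upstream of STAT3. It lay at 5.68, 5.54 and 4.87 CPM in WT and 7.24, 8.002 and 6.73 CPM in KO. All KO libraries were above all WT libraries by at least 1.05 CPM. The fold was 1.36 (log2 fold change 0.45, SE 0.179) with an adjusted p of 0.439, and 0.245 with the block, so it was not called in either fit.

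Stat3, the transcription factor downstream of this receptor, lay at 42.7, 41.8 and 42.5 CPM in WT and 45.7, 36.9 and 36.1 CPM in KO. The WT libraries were within 0.958 CPM of each other, and the KO libraries fell on both sides of them. Its log2 fold change was -0.10 (95% interval -0.35 to 0.15). RNA levels do not report the phosphorylation through which STAT3 acts. Of 14 other genes of gp130 and STAT3 signalling, 11 were tested and none was called by edgeR (0 at an unadjusted p under 0.05, and 0 called with the block), with a median of -0.08. The smallest p among them was that of Lifr, a receptor for leukaemia inhibitory factor, with a log2 fold change of -0.23 (SE 0.120).

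Aspg, an asparaginase counted among the pan-reactive genes, lay at 1.999, 1.89 and 1.38 CPM in WT and 2.49, 3.59 and 2.67 CPM in KO. The KO libraries were all above WT, and KO replicate 2 was highest. The fold was 1.66 (log2 fold change 0.73, 95% interval 0.08 to 1.38) with an adjusted p of 0.443, and 0.257 with the block. The 246 bases before its annotated start on the plus strand of GRCm38.p6 (chr12:112106433-112106678) are shown as those of the reactive gene with the largest fold after Emp1, and hold none of the 3 forms.
Aspg: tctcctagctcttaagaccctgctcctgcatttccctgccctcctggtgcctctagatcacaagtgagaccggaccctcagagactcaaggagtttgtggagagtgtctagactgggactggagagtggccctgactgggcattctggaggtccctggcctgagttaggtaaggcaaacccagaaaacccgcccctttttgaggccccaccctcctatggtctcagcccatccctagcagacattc

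The remaining surface proteins of the reactive set showed smaller differences. Cd44, a hyaluronan receptor, ranged from 7.10 to 8.52 CPM in WT and from 6.73 to 10.03 CPM in KO. S1pr3, a receptor for sphingosine 1-phosphate, ranged from 8.49 to 9.26 CPM in WT and from 8.83 to 10.8 CPM in KO, and was higher in KO in all 3 pairs. Cd109, a membrane-anchored protein of the alpha-2-macroglobulin family, ranged from 1.81 to 3.24 CPM in WT and from 1.59 to 2.65 CPM in KO. The groups overlapped for all 3 genes, and the log2 fold changes were 0.14, 0.16 and -0.10.

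Serpina3n, a secreted serine protease inhibitor that marks reactive astrocytes and some oligodendrocytes, lay at 24.7, 57.5 and 17.3 CPM in WT and 25.7, 33.3 and 28.0 CPM in KO. WT replicate 2 was the highest of all 6 libraries and the other WT libraries were the lowest. The log2 fold change was -0.19 (95% interval -0.94 to 0.56) with all libraries and 0.46 without WT replicate 2, so its sign rests on that library.

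Of the reactive genes, 5 were near the limit of detection. Lcn2, lipocalin 2, a secreted iron-siderophore carrier that is among the most strongly induced genes of reactive astrocytes, had 6, 0 and 2 counts in WT and 8, 4 and 8 counts in KO. No count in WT replicate 2 allows a level of up to 0.203 CPM, taking 3 counts as the limit. Steap4, a metalloreductase, had 8, 8 and 14 counts in WT and 6, 8 and 2 counts in KO. Ptx3, a secreted pattern-recognition protein of the pentraxin family, had 14, 16 and 2 counts in WT and 6, 21 and 9 counts in KO. Timp1, an inhibitor of metalloproteinases, had 23, 9 and 8 counts in WT and 24, 6 and 16 counts in KO. Hspb1, a small heat shock protein, had 12, 12 and 20 counts in WT and 24, 14 and 16 counts in KO. The groups overlapped for each of the 5, and no difference was called. Low counts in this table were mostly even, 75% of all values from 1 to 9 but 50.6% of those of 500 or more, so the limit above, which treats counts as independent, may be too low.

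Other astrocyte genes and other reactive genes, beyond the 32 members, were read in the same fits. Of 20 further astrocyte genes all were tested and 1 was called, Cbs, the cystathionine beta-synthase of the transsulfuration pathway. It lay at 28.4, 28.3 and 27.7 CPM in WT and 39.3, 41.3 and 41.3 CPM in KO, without overlap, and rose by 0.53 on the log2 scale (SE 0.0988, adjusted p 0.0274 by edgeR, 0.0041 with the block). The block added Slc25a18, a mitochondrial glutamate carrier, at 0.39 (adjusted p 0.0273), and Kcnj10, the Kir4.1 potassium channel of astrocytes and oligodendrocytes, at -0.40 (adjusted p 0.0224). Over all genes, 1.20% were called without the block and 3.41% with it. The median over the 20 genes was 0.06.

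None of 12 A1 genes was called by edgeR, with 3 at an unadjusted p under 0.05, all higher in KO, beside 9.67% of all genes, and a median of 0.23. The smallest p among them was that of Serping1, the C1 inhibitor of complement, at 0.72 (SE 0.212, adjusted p 0.232), which was called with the block (0.0330). Of 9 further A2 genes 7 were tested and none was called, with 2 at an unadjusted p under 0.05, both higher, beside the same 9.67%, and a median of 0.41. The smallest p there was that of Tm4sf1, a membrane protein also made by endothelial cells, at 0.58 (SE 0.196, adjusted p 0.325). Of 2 further pan-reactive genes only Cp, ceruloplasmin, was tested, with 0.43 (SE 0.184, adjusted p 0.481). The summed CPM of each of these 3 lists did not overlap between the groups. A1 genes summed to 84.3 to 100.1 CPM in WT and 106.9 to 113.0 CPM in KO. The A2 sums were 32.1 to 34.3 and 34.7 to 53.0 CPM, and the pan-reactive sums 8.25 to 10.8 and 11.1 to 15.2 CPM. The A2 and pan-reactive sums were thus separated only narrowly. S100a10 supplied the largest part of the A2 sums, at 15.99, 16.2 and 16.9 CPM in WT and 16.1, 16.7 and 32.3 CPM in KO, and its ranges overlapped. Cp supplied most of the pan-reactive sums.

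The members were also compared between the 3 libraries with cerebellar transcripts and the 3 without, in a fit that holds genotype fixed. None of the 30 members was called by edgeR, beside 0.729% of all genes, and 8 had an unadjusted p under 0.05, beside 8.53% of all genes. Of these, 7 were higher with cerebellar transcripts: S100b by 0.46 (adjusted p 0.1004), Aqp4 by 0.57, Slc4a4 by 0.38, Acsbg1 by 0.23, Fabp7 by 0.47, Nes by 0.47 and Timp1 by 1.52 on the log2 scale. Ntsr2 was lower, at -0.38 (adjusted p 0.174), with all 3 libraries that hold cerebellar transcripts at 74.2 to 95.01 CPM and the other 3 at 108 to 111 CPM. The median was 0.11 for the homeostatic and -0.05 for the reactive genes, beside 0.00 for all genes. Bergmann glia markers, of which Fabp7 and Slc1a3 are members, summed to 1039 CPM in WT replicate 1 and 1054 CPM in KO replicate 1 and to between 854 and 866 CPM in the other 4 libraries. Slc1a3 makes up most of that sum. Of the 6 markers, all had positive values with cerebellar transcripts and 2 were called, and Gdf10, chosen after its values were seen, lay between 36.8 CPM (KO replicate 3) and 58.6 CPM where cerebellar transcripts were present and between 8.92 and 20.3 CPM where they were not. Replicate 1 was the highest library of both groups for 11 of the 30 members.

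With that term in the model the genotype difference of Vim was 0.53 and stayed called. Within the 3 libraries without cerebellar transcripts the KO group is 1 library, and within the 3 with them the WT group is, so the values there have no spread of their own in that group. Vim stood at 0.65 without and 0.40 with cerebellar transcripts, Emp1 at 1.21 and 1.44, and Slc1a2 at -0.28 and -0.23.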

How the data were processed

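RNA was measured in 6 mouse brain libraries, 3 WT and 3 KO. The authors deposited whole-number read counts per gene, and the count table, not the normalized one, was used. The submitters' processing notes list the mm10 build, the aligner STAR (2.3.0e), the counter featureCounts (1.5.0), Trimmomatic (0.32), FastQC (0.11.2) and DESeq2. The strand setting and the handling of read pairs and of multiply mapped reads are not given in the sources used here.

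Counts were tested with edgeR 4.0.16 (R 4.3.3; TMM scaling, filterByExpr, glmQLFit and glmQLFTest, KO against WT, 4 residual degrees of freedom), with Benjamini-Hochberg adjustment over all tested genes and a threshold of 0.05. The fit was tested on simulated data with a single spread for all genes and no replicate pairs, cerebellar split or length trend. That test therefore does not cover those features of these data. Members and lists were chosen with earlier results of these data known. Values in every library are given for members called in any listed fit, with an unadjusted p under 0.05 or with ranges that do not overlap, and for Gfap, Vim, Nes, Slc1a2, Slc1a3, Aqp4, Aldh1l1 and Stat3. Lcn2, Steap4, Ptx3, Timp1, Hspb1, Serpina3n, Ntsr2 and, of the other lists, Kcnj10, Slc25a18 and S100a10 were singled out after their values were seen. From each pathway list, the genes called, or otherwise that with the smallest p, are named.

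Deviations from group means correlated at 0.351, 0.334 and 0.177 for replicates 1, 2 and 3, all over 0.1. Between libraries of different numbers the correlations ran from -0.381 to 0.1002. The highest of these, for WT replicate 3 with KO replicate 2, was also just over 0.1. The numbers were treated as pairs. This pairing comes from the data, not from the labels. The fit with the replicate block has 2 residual degrees of freedom. Libraries with over 5 CPM of Gabra6 were taken to hold cerebellar transcripts, and terms for these and for Xist (over 5 CPM) were tried. Other alternatives were RLE, upper-quartile and library-total scaling, other filters, DESeq2 1.42.0, limma-voom (limma 3.58.1), a robust spread, loess offsets on exonic length (span 0.5), leaving out each library and, added after seeing that low counts were mostly even, halved counts. Exonic lengths and positions are those of GENCODE M21 on mm10, found for all 32 members. Promoter windows are from RefSeq on GRCm38.p6. The SE and intervals of fold changes were computed from edgeR's fold change, F statistic and total degrees of freedom. They rest on the spread between libraries, which edgeR estimates partly by sharing information across genes. The limit for a count of 0 covers counting error only.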

Additional observations from a re-analysis of the deposited data

How the results depend on the processing

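The numbers of called members, 1 in all, 0 homeostatic and 1 reactive, were unchanged under RLE, upper-quartile and library-total scaling, the filter at a mean of 1 CPM, limma-voom, the robust spread, the cerebellum term, length offsets and halved counts. Without a filter and with DESeq2, 2 were called, both reactive. With the replicate block 3 were called, 1 homeostatic and 2 reactive. With the block and the cerebellum term 4 were called, 1 homeostatic and 3 reactive. With the block and length offsets 3 were called, 1 homeostatic (S100b at -0.39) and 2 reactive. Within libraries without cerebellar transcripts 6 were called, 3 homeostatic and 3 reactive, but KO is a single library there, assumed to vary like the others. Within those with them, and with the Xist term, 0 were called, 0 of them reactive. Leaving out 1 library gave 0 to 1 in all and 0 to 1 reactive, with 0 homeostatic. The median of the reactive members ran from 0.16 to 0.42 when 1 library was left out, highest without WT replicate 1. The cause was not tested.

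Over all genes, 199 were called, against 566 with the replicate block, 535 with the block and the cerebellum term, 476 with the block and length offsets, 315 by DESeq2 and 129 with the Xist term. Leaving out 1 library gave 100 to 305. Added alone, the block changed no member's call other than those of Emp1 and Fabp7. Added to the cerebellum term it gained Emp1, S100b and Gfap. Of 30 members, 14 kept their sign in all 23 alternatives and 16 changed it in at least 1, none of them where called. Lcn2, Steap4, Ptx3, Timp1 and Hspb1 had at most 24 counts in any library, so their values are the least precise of the set.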

Other observations

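Even counts were over-represented in the deposited table at low levels. The share of even values was 75% among counts from 1 to 9, 67.6% from 10 to 49, 55% from 50 to 499 and 50.6% at 500 and above. All 12 counts of Lcn2 and Steap4 over the 6 libraries were even. Halving every count left Vim as the only called member, at 0.60, with 203 of 15405 genes called in all and 27 members tested. The source of the even counts was not tested.

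Leaving out KO replicate 1 raised the number of called genes from 199 to 305 while Vim was lost, and leaving out KO replicate 3 lowered it to 132 while Emp1 was gained, at 1.53.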
